A study of Mus musculus with 40 samples.

Results

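Genes that mark the intercalated cells of the kidney were followed across the renal cortex of WT and diabetic Akita mice. The 10 genes were chosen by name, as the parts that carry out or direct acid and base handling in these cells, and they are 10 of the 55401 genes measured. They are 3 subunits of the proton pump (Atp6v1b1, Atp6v0d2 and Atp6v1g3), 3 anion exchangers (Slc4a1, Slc4a9 and Slc26a4), 2 ammonia transporters (Rhcg and Rhbg), the water and anion channel Aqp6, and the transcription factor Foxi1. All 10 were counted in each of the 40 libraries and entered every test.

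Akita mice (Ins2-Akita heterozygous, on C57BL/6J) carry a mutation in an insulin gene and were diabetic, and their WT littermates were not. Each genotype was split over 4 treatments with 5 mice in each, which made 8 groups. MitoGamide, a dicarbonyl scavenger directed to mitochondria, was given daily by gavage at 10 mg/kg, and its controls received the vehicle, 10% ethanol in water. These mice were male and were treated from 6 to 22 weeks of age. MitoQ, a quinone antioxidant directed to mitochondria, had a water vehicle as its control. The dose, route and schedule of MitoQ and the sex of the water vehicle and MitoQ mice were not given in the sources used here. Sample records give these mice the same ages, 6 and 22 weeks. The ages come from a protocol that describes only the ethanol vehicle and MitoGamide mice. The ethanol vehicle and MitoGamide groups are called the ethanol arm below, and the water vehicle and MitoQ groups the water arm, with 20 mice in each. Anything else that differed between the arms cannot be told apart from the vehicle. RNA came from individual animals, and rRNA-depleted libraries were made from it.

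Intercalated cells sit singly among the principal cells of the connecting tubule and collecting duct. Type A cells pump protons into the urine through the vacuolar H+-ATPase and return bicarbonate to the blood through Slc4a1, while type B cells secrete bicarbonate through Slc26a4, also called pendrin, and use Slc4a9 on the opposite face. Ammonia leaves through Rhbg and Rhcg and traps protons in the urine, and Foxi1 is the factor needed for these cells to form and to express pump subunits and exchangers.

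The libraries held 9106654 to 24321424 estimated counts. Values are given as CPM, the count relative to the library total, after TMM scaling, which sets libraries to a common level from the genes they share. The 7 proximal tubule markers summed to between 7610 and 15400 CPM per mouse. Of 5 genes listed as inner medulla markers, not all specific to that region, 3 (Slc14a1, Upk1b and Krt5) had medians of 5.5 counts or fewer per library. Counts on mitochondrial genes took 20.1% to 35.4% of a library in the ethanol arm and 14.3% to 49.2% in the water arm. A library of the WT MitoQ group (replicate 3) stood apart, with the 49.2% share and a TMM factor of 0.505. A second library, Akita MitoGamide replicate 5, stood apart in several intercalated cell genes. It also had the highest mitochondrial share (35.4%) and the lowest TMM factor (0.853) of the ethanol arm, and the fewest genes with a count of all libraries (25467). Values without these libraries are given with the results that rest on them.

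Per kilobase of merged exons, Rhcg had the highest median level over the 40 libraries, at 24.6 CPM per kb, followed by Slc26a4 at 14.8 and Atp6v1b1 at 12.1. Rhbg (8.42), Aqp6 (7.66), Atp6v0d2 (7.47), Atp6v1g3 (7.42), Slc4a1 (6.63), Foxi1 (6.36) and Slc4a9 (6.24) lay close together, and the ranges over libraries of all 7 overlapped. The ammonia channel Rhcg was thus the most abundant of the 10 transcripts on this scale, and the transcription factor among the least. The order rests on merged exons, which pool all annotated transcripts of a gene. These came to 6403 bases over 12 transcripts for Slc4a9 and 2357 bases over 1 for Foxi1.

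The proton pump subunits came first. Atp6v1b1 encodes the B1 subunit of the pump, which is found in intercalated cells and is mutated in human distal renal tubular acidosis with deafness. It lies on the plus strand of chromosome 6 (chr6:83742990-83758855, GRCm38, protein coding, 4381 merged exon bases). In the ethanol arm, the 5 Akita mice on vehicle had 52.4, 55.1, 56.0, 57.1 and 59.6 CPM, and the 5 WT mice on vehicle had 38.4, 43.9, 44.6, 50.2 and 53.7 CPM. Only the highest WT mouse passed the lowest Akita mouse. With MitoGamide, the Akita mice had 47.1, 51.1, 52.8, 55.9 and 63.3 CPM and the WT mice 42.7, 47.9, 48.2, 49.8 and 55.6 CPM.

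In the water arm the same gene ran from 57.3 to 61.1 CPM in Akita mice on vehicle (57.3, 58.0, 58.1, 59.3 and 61.1). The WT mice on water had 46.8, 50.1, 52.9, 57.1 and 58.1 CPM, so that 1 WT mouse lay within the Akita range. With TMM scaling set on these 10 libraries alone the groups did not overlap, which was so for 2.51% of all genes, and the difference was not called. With MitoQ the levels were 42.4, 44.5, 53.2, 54.0 and 56.8 CPM in Akita mice and 39.4, 40, 50.7, 55.0 and 57.3 CPM in WT mice, and these groups overlapped almost entirely. The group means ran from 46.2 CPM (WT ethanol vehicle) to 58.7 CPM (Akita water vehicle), a ratio of 1.27. In this order the 2 highest groups, Akita on water and Akita on ethanol, were 2.7 CPM apart against SDs of 1.49 and 2.64, and every other neighbouring pair was closer than the larger of its SDs.

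Atp6v1b1 was higher in Akita than in WT mice when all 40 mice were compared with treatment as a covariate. The log2 fold change was 0.16 (SE 0.05), with an adjusted p of 0.0223 by edgeR's quasi-likelihood test with Benjamini-Hochberg adjustment over 17769 genes. Within the ethanol vehicle groups it was 0.30 (SE 0.08, edgeR adjusted p = 0.0261), and within the ethanol arm as a whole 0.24 (SE 0.06, edgeR adjusted p = 0.00554). The water arm gave 0.10 with a 95% interval of -0.07 to 0.27 and was not called, and the difference between arms, 0.11 (95% interval -0.10 to 0.32), did not pass the test either. The call over all mice held in each of 40 fits that left out 1 library (edgeR adjusted p at most 0.0378), but it was lost without the 10 mice on ethanol vehicle (0.131), without those on water (0.068) and without those on MitoGamide (0.0633), and with no filter on low counts (0.0586). The call on ethanol vehicle was lost without Akita replicate 2 (0.0663) or WT replicate 1 (0.0526), 3 (0.0526) or 4 (0.0594), and in a fit of all 40 libraries (0.136). In renal cortex in bulk, more intercalated cells and more RNA per cell cannot be told apart, here and for every gene below.

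A stretch of the RefSeq promoter window of Atp6v1b1 is shown because this was the pump gene called for diabetes and because its window holds a forkhead core motif. The motif searched was TGTTTAC on either strand, in windows of 250 bases before to 50 bases after each RefSeq start (GRCm38.p6). The match begins 98 bases before the start and is in capitals below. The part of the Aqp6 window before its start is printed beside it because Aqp6 was the other gene called for diabetes over all mice, and the whole window holds no match.

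Atp6v1b1, chr6:83742767-83742989, plus strand: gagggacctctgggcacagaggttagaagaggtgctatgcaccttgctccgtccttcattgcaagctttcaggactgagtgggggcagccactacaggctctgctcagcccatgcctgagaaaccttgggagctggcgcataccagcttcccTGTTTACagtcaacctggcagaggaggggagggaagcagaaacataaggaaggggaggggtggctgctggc

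Aqp6, chr15:99600950-99601199, plus strand: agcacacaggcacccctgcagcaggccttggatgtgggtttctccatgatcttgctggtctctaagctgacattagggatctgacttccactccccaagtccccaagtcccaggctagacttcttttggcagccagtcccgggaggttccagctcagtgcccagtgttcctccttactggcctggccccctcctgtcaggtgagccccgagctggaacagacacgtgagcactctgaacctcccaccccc

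Windows were found for 6 of the 10 genes (Atp6v1b1, Atp6v1g3, Slc26a4, Foxi1, Rhcg and Aqp6), and 1 of these 6 held the motif. Over all 32851 windows, 1199 (3.65%) held it. A match of these 7 letters is a description of the sequence and not a binding site.

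Atp6v0d2 and Atp6v1g3 encode the d2 and G3 subunits, both also enriched in intercalated cells, on the minus strand at chr4:19876841-19922605 and the plus strand at chr1:138273738-138289462. Atp6v0d2 had group means of 18.5 to 27.6 CPM, and the Akita mean was above the WT mean in 4 of 4 treatments by 1.07 to 1.28 times. The highest mean, in Akita mice on MitoGamide, rested on replicate 5 with 52.9 CPM, against 20.5, 20.7, 20.8 and 23.3 CPM in the other mice of that group. Without that library the Akita mean on MitoGamide was 21.3 CPM against 21.5 CPM in WT mice, and the Akita mean was the higher in 3 of 4 treatments. Over all mice its log2 fold change with diabetes was 0.23 (SE 0.10, edgeR adjusted p = 0.112), and 0.13 without both libraries that stood apart. Atp6v1g3 had group means of 11.2 to 16 CPM and a log2 fold change of 0.05 with a 95% interval of -0.16 to 0.27.

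None of the 3 anion exchangers was called for diabetes over all 40 mice or in either arm by edgeR. Slc26a4, at chr12:31519827-31559969 on the minus strand, is the apical chloride and bicarbonate exchanger of type B cells. It had group means of 42.5 CPM (Akita MitoQ) to 55.8 CPM (WT water vehicle), and the Akita mean was the higher in 1 of 4 treatments, and in 0 of 4 without Akita MitoGamide replicate 5. Its log2 fold change over all mice was -0.12 (SE 0.08, edgeR adjusted p = 0.267), and -0.19 (edgeR adjusted p = 0.0485) without both libraries that stood apart. Slc4a1, at chr11:102348824-102366203 on the minus strand, is the basolateral exchanger of type A cells and also the band 3 protein of red cells. Its log2 fold change was -0.02 with a 95% interval of -0.27 to 0.23, and its spread within WT groups was wide, with 19.6, 21.3, 24.0, 46.6 and 57.6 CPM in WT mice on ethanol vehicle.

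**Figure D1:**
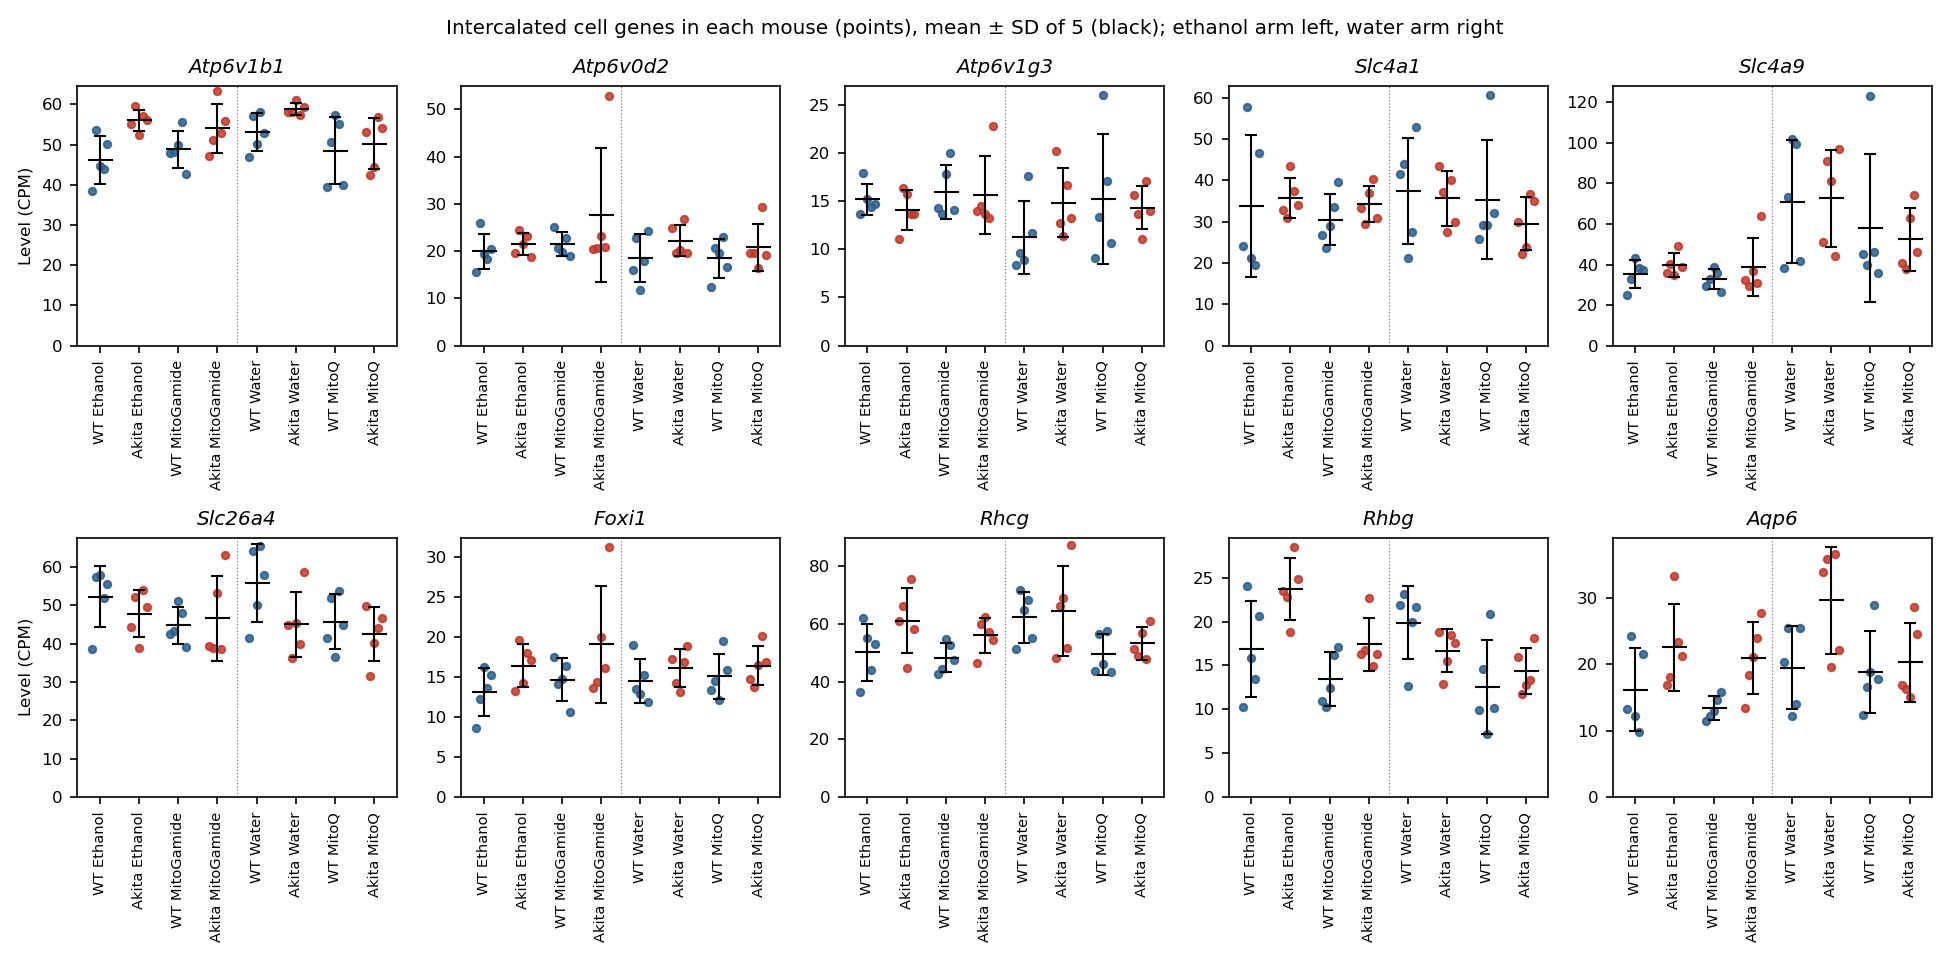
Level in CPM (y axis, from 0) of the 10 intercalated cell genes in each of 8 groups (x axis), 1 point per mouse, with WT in blue and Akita in red, and mean ± SD of 5 mice in black. Slc4a9 was spread from 35.7 to 123 CPM in the water arm, and 1 Akita mouse on MitoGamide stood above the rest of its group for Atp6v0d2, Foxi1 and Slc4a9.

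Slc4a9, on chromosome 18, encodes the basolateral exchanger of type B cells and was the member that differed most between arms. WT mice on water had 38.2, 41.9, 73.3, 99.5 and 102 CPM and Akita mice on water 44.0, 50.9, 81.4, 91.0 and 96.8 CPM. On ethanol vehicle the WT mice had 24.8, 33.0, 37.2, 38.2 and 43.2 CPM and the Akita mice 34.7, 35.7, 38.9, 40.1 and 49.3 CPM. The water groups were thus both higher and more spread, and their lowest mice lay within the range of the ethanol groups. Slc4a9 was lower with ethanol than with water vehicle, by a log2 fold change of -0.90 (SE 0.18, edgeR adjusted p = 0.00436), and was the 1 gene of the 10 called in this comparison, in which 45.8% of all genes were called. For diabetes over all mice its log2 fold change was 0.08 with a 95% interval of -0.20 to 0.37, and it was not called. It was 0.04 without Akita MitoGamide replicate 5 and 0.21 without WT MitoQ replicate 3, the ends of the range over fits that left out 1 library.

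The level of Slc4a9 rose with the mitochondrial share of the library over all mice and in the water arm. Deviations from the group means of 40 mice gave a Pearson r of 0.68 (permutation p = 0.00238, adjusted p = 0.0101 over 65 relations) and a Spearman rho of 0.52 (permutation p = 0.00614, adjusted p = 0.0210). The r was 0.51 without the 2 libraries farthest from the median share, 0.30 in the ethanol arm and 0.75 in the water arm. Akita MitoGamide replicate 5 set the sign in the ethanol arm, where r was -0.23 without it, and without WT MitoQ replicate 3 r was 0.60 in the water arm. The part of the mitochondrial share in the difference between vehicles was not tested. WT MitoQ replicate 3, the library with the highest share, also had the highest Slc4a9 level of all, 123 CPM, against 35.7, 39.8, 45.0 and 46.2 CPM in its group.

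The ammonia transporters Rhcg and Rhbg were both called for diabetes within the ethanol arm and neither over all mice. Rhcg, at chr7:79593363-79617657 on the minus strand, is the ammonia channel of the apical and basolateral membranes. Its group means ran from 48.4 CPM (WT MitoGamide) to 64.5 CPM (Akita water vehicle), and the Akita mean was the higher in 4 of 4 treatments by 1.04 to 1.22 times. On ethanol vehicle the Akita mice had 44.9, 58.3, 61.2, 66.3 and 75.5 CPM and the WT mice 36.6, 44.2, 53.0, 55.1 and 62.1 CPM, which overlapped. Rhcg was called within the ethanol arm (log2 fold change 0.28, SE 0.09, edgeR adjusted p = 0.0252, 0.0507 without Akita ethanol replicate 4, and 0.087 in a fit of all 40 libraries) and not over all mice (0.16, SE 0.07, edgeR adjusted p = 0.0972), where 3 of 40 fits that left out 1 library called it (edgeR adjusted p of 0.031 to 0.0484).

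Rhbg is the basolateral ammonia transporter, at chr3:88242874-88254709 on the minus strand. On ethanol vehicle, Akita mice had 18.8, 22.8, 23.5, 24.8 and 28.5 CPM and WT mice 10.3, 13.5, 15.8, 20.6 and 24.0 CPM. On water vehicle, Akita mice had 12.9, 15.5, 17.6, 18.5 and 18.8 CPM and WT mice 12.7, 20, 21.6, 21.9 and 23.1 CPM. The Akita mice thus lay towards the top of the joint range on ethanol and towards the bottom on water. The log2 fold change with diabetes was 0.50 (SE 0.18, edgeR adjusted p = 0.0808, DESeq2 adjusted p = 0.0456, and edgeR adjusted p = 0.0192 without WT replicate 2) on ethanol vehicle and -0.25 (SE 0.18, edgeR adjusted p = 0.958) on water vehicle. The difference of these effects was 0.75 (95% interval 0.17 to 1.34), with an unadjusted p of 0.0137 and an adjusted p of 1 by edgeR.

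With MitoGamide the Rhbg levels were 14.9, 16.3, 16.3, 16.8 and 22.7 CPM in Akita mice and 10.3, 11, 12.4, 16.2 and 17.1 CPM in WT mice. Both treatments of the ethanol arm together gave a log2 fold change with diabetes of 0.46 (SE 0.13, edgeR adjusted p = 0.0110). The water arm gave -0.04 with a 95% interval of -0.38 to 0.30, and the difference between arms was 0.47 (SE 0.21, edgeR unadjusted p = 0.0322, adjusted p = 0.572). Over all mice Rhbg was not called in any of 40 fits that left out 1 library, and it was called without the 10 mice on water (0.34, edgeR adjusted p = 0.038). Rhbg fell with the mitochondrial share of the library, as deviations from the group means of 40 mice. The Pearson r was -0.58 (permutation p = 0.0003, adjusted p = 0.00221) and the Spearman rho -0.55 (permutation p = 0.00015, adjusted p = 0.00162). The r was -0.4 without the 2 libraries farthest from the median share, -0.44 in the ethanol arm and -0.69 in the water arm. The part of this share in the Rhbg results was not tested. The Rhbg values also carry an uncertainty of assignment. Its exons share 1190 bases on the same strand with Gm38392, a protein-coding gene model counted separately, with 31 to 173 counts per library against 33 to 626 for Rhbg, so that reads could be divided between them. Gm38392 itself had a log2 fold change of 0.16 in the ethanol arm (SE 0.22, edgeR adjusted p = 0.592).

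Aqp6, a channel of intracellular vesicles in type A cells that passes water and anions at low pH, had the largest change with diabetes of the 10 over all mice. It lies on the plus strand of chromosome 15 (chr15:99601400-99605477). On ethanol vehicle the Akita mice had 16.8, 18, 21.2, 23.3 and 33.3 CPM and the WT mice 9.75, 12.2, 13.2, 21.5 and 24.2 CPM. With MitoGamide they had 13.4, 18.3, 21.1, 23.9 and 27.7 CPM and 11.4, 12.2, 12.9, 14.6 and 15.8 CPM. In the latter pair only the lowest Akita mouse fell within the WT range.

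On water vehicle Aqp6 stood at 19.6, 22.1, 33.8, 35.8 and 36.6 CPM in Akita mice and 12.2, 14, 20.4, 25.4 and 25.4 CPM in WT mice. With MitoQ the values were 15.0, 16.3, 16.8, 24.6 and 28.6 CPM and 12.3, 16.5, 17.7, 18.8 and 28.9 CPM, and the genotypes overlapped throughout. The Akita mean was the higher in 4 of 4 treatments, by 1.08 times with MitoQ and up to 1.56 times with MitoGamide (1.43 without Akita MitoGamide replicate 5). Over all mice the log2 fold change was 0.46 (SE 0.13, edgeR adjusted p = 0.00694), with 0.58 (SE 0.16, edgeR adjusted p = 0.00942) in the ethanol arm and 0.35 (95% interval -0.04 to 0.75) in the water arm. Of the single treatments, MitoGamide gave the called difference, 0.67 (SE 0.17, edgeR adjusted p = 0.0242), ethanol vehicle gave 0.48 (edgeR adjusted p = 0.202), water vehicle 0.60 (edgeR adjusted p = 0.597) and MitoQ 0.11 (edgeR adjusted p = 0.973). The call over all mice held in each of 40 fits that left out 1 library and was lost without the 10 mice on MitoGamide (0.40, edgeR adjusted p = 0.0906). The call with MitoGamide was lost without Akita replicate 4 (0.0513) or WT replicate 1 (0.0636), 2 (0.061) or 3 (0.0566), and in a fit of all 40 libraries (0.103).

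Foxi1, the forkhead factor of intercalated cells, lies at chr11:34204338-34208089 on the minus strand. On ethanol vehicle, Akita mice had 13.3, 14.2, 17.1, 18 and 19.6 CPM and WT mice 8.58, 12.2, 13.6, 15.2 and 16.3 CPM, with overlap in the middle of the range. The Akita mean was the higher in 4 of 4 treatments by 1.09 to 1.30 times, and without Akita MitoGamide replicate 5 the ratio with MitoGamide fell from 1.30 to 1.09. Over all mice the log2 fold change was 0.24 (SE 0.09, edgeR adjusted p = 0.0527), on the edge of the threshold of 0.05. It was called in 21 of 40 fits that left out 1 library (edgeR adjusted p of 0.0197 to 0.0862 over the 40), by DESeq2 (0.0344), with RLE scaling (0.0427) and without the mice on MitoQ (0.0454), and without both libraries that stood apart the fold change was 0.16 (edgeR adjusted p = 0.16). In the ethanol arm it was 0.37 (SE 0.14, edgeR adjusted p = 0.0438). This call was lost with RLE scaling (0.0506), with at least 10 counts asked of every library (0.0508), with the replicate block (0.0548) and in a fit of all 40 libraries (0.0608), and in 11 of 20 fits that left out 1 library (edgeR adjusted p of 0.0565 to 0.0811), those without Akita ethanol replicate 2, 4 or 5, Akita MitoGamide replicate 3 or 5, WT ethanol replicate 1, 2 or 4, or WT MitoGamide replicate 2, 3 or 5. Akita MitoGamide replicate 5, at 31.3 CPM, was the highest mouse for Foxi1, and without it the fold change in the ethanol arm was 0.26.

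**Figure D2:**
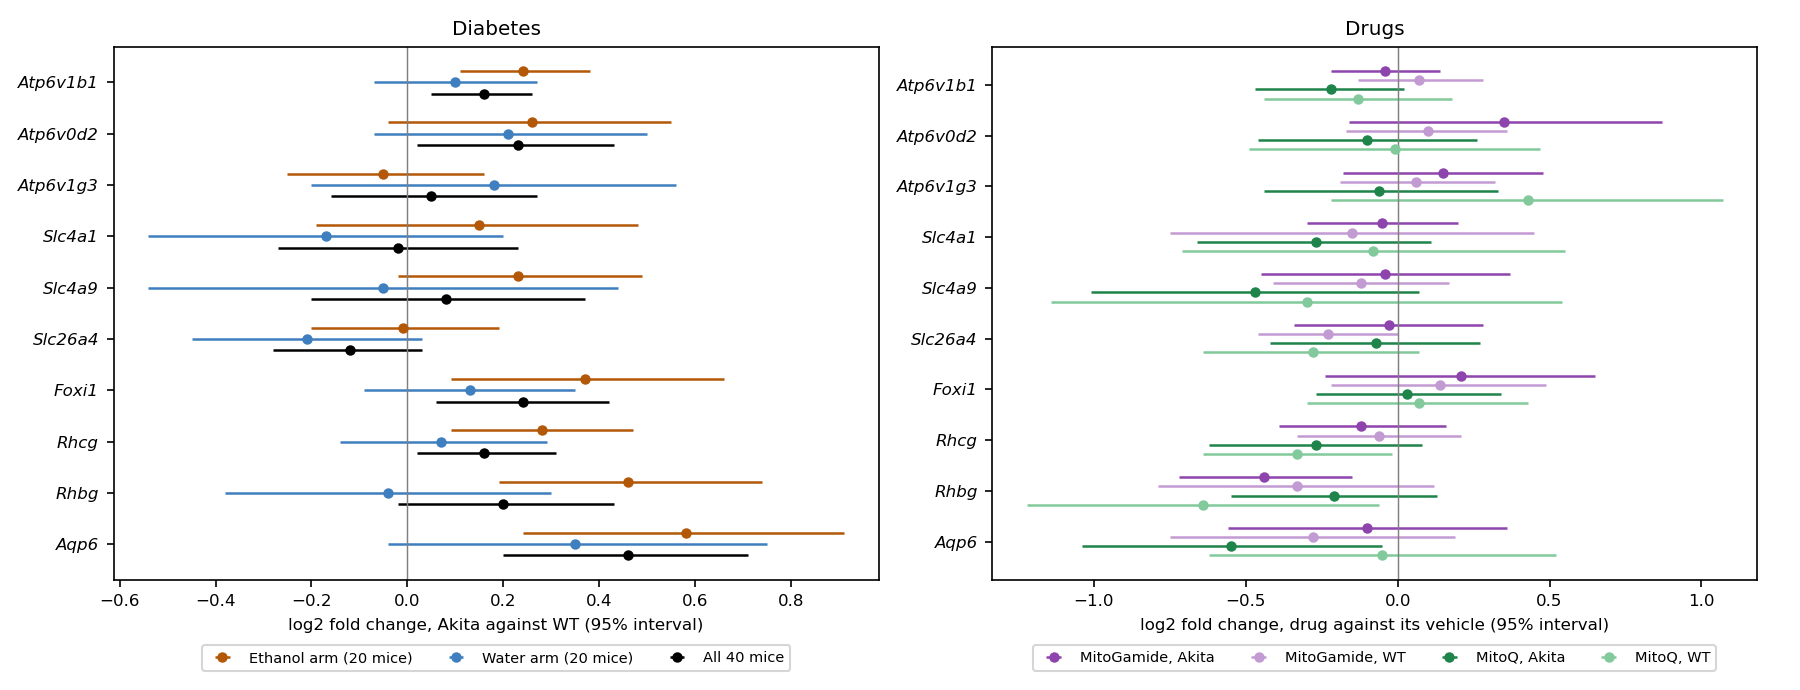
Log2 fold change (x axis) of the 10 genes with its 95% interval, for diabetes on the left (ethanol arm, water arm and all 40 mice) and for each drug against its vehicle on the right. The intervals of Atp6v1b1, Foxi1, Rhcg, Rhbg and Aqp6 lie above 0 in the ethanol arm, and those of all 10 genes include 0 in the water arm.

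Together, 2 of the 10 genes rose with diabetes over all mice (Atp6v1b1 and Aqp6) and 0 fell, where 22.8% of all genes were called and 11% were called higher. The median log2 fold change of the 10 was 0.16, beside -0.022 over all genes tested. Without both libraries that stood apart, Slc26a4 was called lower as well, and DESeq2, on all 40 libraries, called Foxi1 besides, beside 24.5% of all genes. In the ethanol arm 5 of 10 rose (Atp6v1b1, Foxi1, Rhcg, Rhbg and Aqp6) and 0 fell, beside 31.2% of genes called and 17.1% called higher. The mitochondrial share moved with genotype in this arm, with 28% to 35.4% in Akita and 24.6% to 27.8% in WT mice on MitoGamide, and 21.6% to 28.7% in Akita and 20.1% to 22.6% in WT mice on ethanol vehicle. On water vehicle it had a median of 30.9% in Akita and 23.6% in WT mice, and with MitoQ 28.7% and 27.4%, with overlap in both, so that the Akita median was the higher in 4 of 4 treatments. Its part in the calls of the ethanol arm and over all mice was not tested. In the water arm 0 of 10 were called by edgeR, 0 by DESeq2 and 0 at an unadjusted p under 0.05, beside 4.31% of all genes called by edgeR. The difference between the arms was called for 0 of 10 genes by edgeR and by DESeq2 and for 0% of all genes by edgeR, and 1 of the 10 (Rhbg) had an unadjusted p under 0.05. The effect of diabetes on these genes was therefore not shown to differ between arms.

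By single treatment, 1 of 10 was called on ethanol vehicle (Atp6v1b1, beside 16.4% of all genes) and 1 of 10 with MitoGamide (Aqp6, beside 14.3%). On water vehicle 0 of 10 were called by edgeR and by DESeq2 and 1 had an unadjusted p under 0.05, beside 0.552% of all genes called by edgeR. With MitoQ 0 of 10 were called by either tool and 0 had an unadjusted p under 0.05, beside 0.557% by edgeR. These comparisons share no mice with each other, except where arms or all mice were pooled.

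No gene of the 10 was called by edgeR for either drug against its vehicle. MitoGamide in Akita mice gave 0 of 10 calls by edgeR, beside 1.26% of all genes, while DESeq2 called 1 of 10, beside 6.82% of all genes. This was Rhbg, lower with MitoGamide by a log2 fold change of -0.44 (SE 0.13, edgeR adjusted p = 0.103, DESeq2 adjusted p = 0.0437). It was also the 1 gene with an unadjusted edgeR p under 0.05. Rhbg in WT mice given MitoGamide changed by -0.33 with a 95% interval of -0.79 to 0.12, and Slc26a4 by -0.23 with an interval of -0.46 to 0.00. MitoGamide in WT mice gave 0 of 10 calls by edgeR and DESeq2 and 0 at an unadjusted p under 0.05, beside 0% of all genes by edgeR.

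MitoQ gave 0 of 10 calls in each genotype by edgeR and by DESeq2, beside 0% of all genes by edgeR. In Akita mice Aqp6 had an unadjusted p of 0.0344 (log2 fold change -0.55, 95% interval -1.04 to -0.05, edgeR adjusted p = 0.999). The levels of Atp6v1b1 in Akita mice on MitoQ, 42.4 to 56.8 CPM, did not overlap those on water, 57.3 to 61.1 CPM, a separation found in 0.314% of all genes, and its log2 fold change of -0.22 (edgeR adjusted p = 0.999) was not called. In WT mice Rhcg (-0.33, 95% interval -0.64 to -0.02) and Rhbg (-0.64, 95% interval -1.22 to -0.06) had unadjusted p-values of 0.0413 and 0.0322 by edgeR. No difference in drug effect between genotypes was called for any of the 10 genes by edgeR or DESeq2, and 0 of 10 had an unadjusted p under 0.05 for either drug. The MitoGamide and diabetes comparisons in Akita mice on ethanol vehicle share those 5 mice, in which Rhbg was at its highest group mean of 23.7 CPM.

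Other genes of the same cells were compared with the 10. Of 16 other intercalated cell genes, 6 rose with diabetes over all mice and 0 fell, beside the 22.8% of all genes called and 11% called higher in that comparison, with a median log2 fold change of 0.22. They included Car15 (0.74, SE 0.07), a membrane carbonic anhydrase, Slc4a8 (0.44, SE 0.07), a sodium-driven chloride and bicarbonate exchanger, Car2 (0.49, SE 0.08), the cytosolic carbonic anhydrase, Atp6v0a4 (0.46, SE 0.08), the a4 subunit of the pump, and Tmem213 (0.30), which was named after its value was seen, as was the pump subunit Atp6v1c2. Of the 18 pump subunits shared by most cell types, 1 rose (Atp6v1g1, 0.22) and 1 fell (Atp6v0a2, -0.22), and their median was 0.01. Among the pump subunits enriched in intercalated cells, a rise with diabetes was thus called in Atp6v1b1 and Atp6v0a4, and not in Atp6v0d2, Atp6v1g3 and Atp6v1c2 (0.14, SE 0.08).

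The proximal tubule, which makes the ammonia that intercalated cells pass on, moved by more. Of its 8 ammonia and bicarbonate genes, 4 rose and 1 fell over all mice, beside 22.8% of all genes called. The glutamine transporter Slc38a3 rose by 1.98 (SE 0.23), phosphoenolpyruvate carboxykinase Pck1 by 1.15 (SE 0.17), carbonic anhydrase Car14 by 0.71 (SE 0.12) and glutamate dehydrogenase Glud1 by 0.59 (SE 0.13) on the log2 scale, while carbonic anhydrase Car4 fell by 0.62. Glud1 was named after its value was seen, to complete the list. The fold changes of Rhcg and Rhbg, 0.16 and 0.20, stood below those of Slc38a3 and Pck1 in the same mice.

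Markers of neighbouring cells also moved with diabetes over all mice, and their counts stand beside the same 22.8% called and 11% called higher. Of 10 principal cell markers, 5 rose and 0 fell, led by the water channel Aqp2 (0.98, SE 0.13), the sodium channel subunits Scnn1g (0.53) and Scnn1b (0.34), and Gata3 (0.33). The summed level of the 10 markers was 235 to 377 CPM in Akita mice and 162 to 318 CPM in WT mice. Of 7 markers of the thick ascending limb and distal convoluted tubule, 1 rose (Trpm6, 0.59) and 1 fell (Umod, -0.50), of 7 proximal tubule markers 0 rose and 3 fell (Slc7a13, Slc34a1 and Lrp2), and of 8 macrophage markers 1 rose (Cd14) and 3 fell (Csf1r, Adgre1 and Fcgr1). Of 9 erythroid markers 8 were tested, 0 rose and 1 fell (Epb42, -0.52). Of 5 genes listed as inner medulla markers 2 were tested (Slc14a2 and Aqp1) and 0 were called, 0 at an unadjusted p under 0.05 and 0 by DESeq2. Aqp1, Upk1b and Krt5 are not specific to the inner medulla. Of the tested genes, only Slc14a2 (-0.72, 95% interval -2.14 to 0.69) thus bears on that region, and its interval is wide. In the water arm alone Upk1b was called higher in Akita mice (2.52, SE 0.64, edgeR adjusted p = 0.0242). Its counts were low, at 0 to 117 per library with a median of 2.5. Slc14a2 was at -2.09 (edgeR adjusted p = 0.238) in this arm. On ethanol vehicle Slc14a2 went the other way with diabetes, at 2.79 (95% interval 0.47 to 5.12, edgeR adjusted p = 0.0972). For MitoGamide in Akita mice it was at -2.1 (95% interval -4.25 to 0.05, edgeR adjusted p = 0.25). The part of a changed cell makeup in the results on the 10 genes was not tested.

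**Figure D3:**
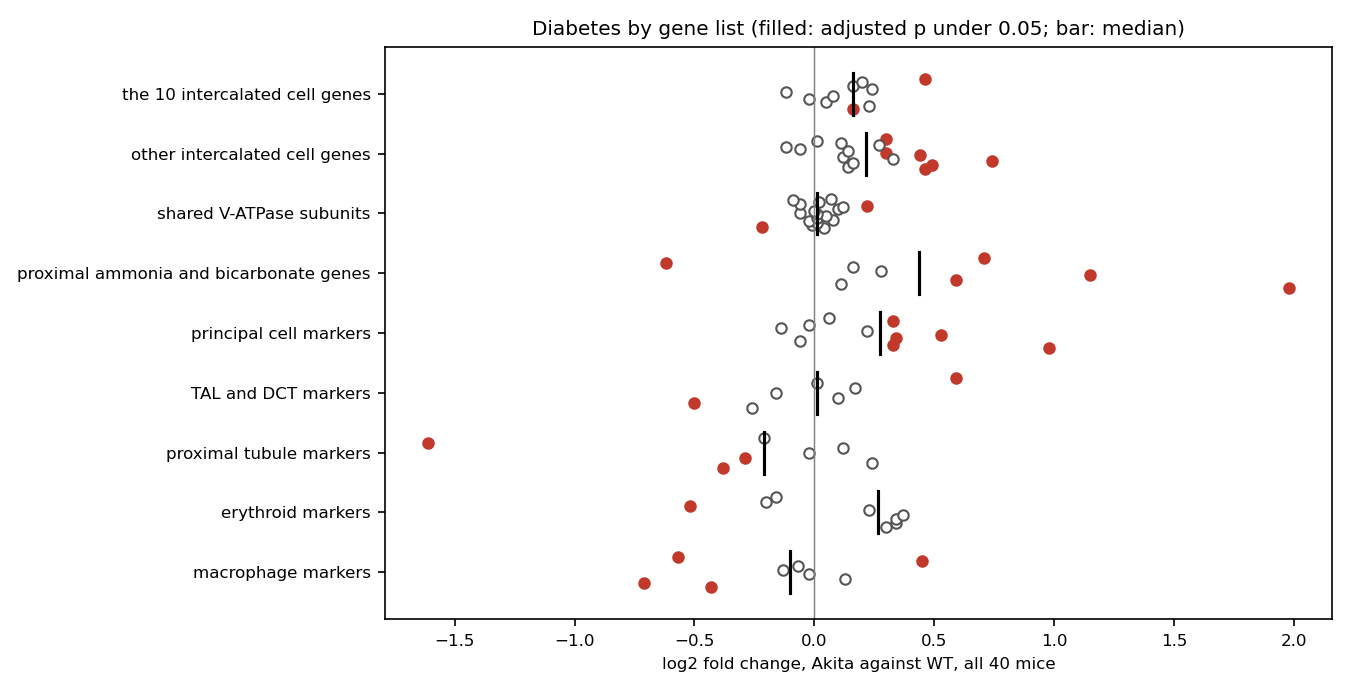
Log2 fold change with diabetes over all 40 mice (x axis) of every gene tested in 9 gene lists (y axis), with filled points for an edgeR adjusted p under 0.05 and a bar at the list's median. The 10 genes lie between -0.12 and 0.46, with medians of 0.16 for them, 0.22 for other intercalated cell genes and 0.01 for shared pump subunits.

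Many pairs of the 10 genes varied together among mice of one group. Deviations from the group means, on log2 CPM, were correlated above 0 in 42 of 45 pairs of members, with a median Pearson r of 0.38, and 19 pairs passed a permutation test at an adjusted p under 0.05 over 65 relations, all of them positive, while the other pairs did not and the lowest r was -0.3. The same share over other gene pairs was not computed. The points of such a pair share the library and its scaling. The closest pair was Slc4a1 and Aqp6, both of type A cells, with r = 0.86 and rho = 0.86 over 40 mice (permutation p = 1e-05 for each, the smallest that 100000 permutations can give, adjusted p = 0.000325 and 0.000217). Their r was 0.84 without the 2 farthest mice, 0.80 in the ethanol arm and 0.92 in the water arm.

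Slc4a1 is also a red cell gene, and globin varied with it. The r of Slc4a1 with summed globin was 0.72 (rho 0.72, permutation p = 1e-05 for each, adjusted p = 0.000325 and 0.000217), 0.70 without the 2 farthest mice, 0.68 in the ethanol arm and 0.75 in the water arm. For Aqp6 and globin r was 0.50 (rho 0.51, permutation p = 0.00291 and 0.00297, adjusted p = 0.0111 and 0.0121), 0.49 without the 2 farthest, 0.41 in the ethanol arm and 0.58 in the water arm. Rhbg also rose with globin (r = 0.54, permutation p = 0.0008, adjusted p = 0.00371), with 0.31 in the ethanol arm and 0.73 in the water arm. Slc4a9 fell with it (r = -0.57, permutation p = 0.00057, adjusted p = 0.00309), with -0.5 and -0.64. The remaining members did not pass at an adjusted p under 0.05. The 8 erythroid markers that passed the count filter summed to 389 to 2720 CPM in Akita mice and 347 to 2510 CPM in WT mice. The red cell structural genes Epb42 and Ank1 were at 3.09 CPM or less in every library. The part of red cell RNA in the levels of Slc4a1, Aqp6, Rhbg and Slc4a9 was not tested.

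The type B exchangers and Foxi1 went together in the ethanol arm. Over its 20 mice r was 0.90 for Slc4a9 with Slc26a4, 0.87 for Slc4a9 with Foxi1 and 0.86 for Slc26a4 with Foxi1, and without Akita MitoGamide replicate 5 these were 0.86, 0.78 and 0.80. In the water arm they were 0.07, -0.20 and 0.26, and without WT MitoQ replicate 3 they were 0.36, 0.01 and 0.16. Over all 40 mice the first was 0.33 (rho 0.39, permutation p = 0.0757 and 0.0349, adjusted p = 0.149 and 0.0782), with 0.21 without the 2 farthest mice and 0.56 without WT MitoQ replicate 3. The values of r were thus higher in the ethanol arm, with and without these libraries, and whether the arms differ in it was not tested.

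**Figure D4:**
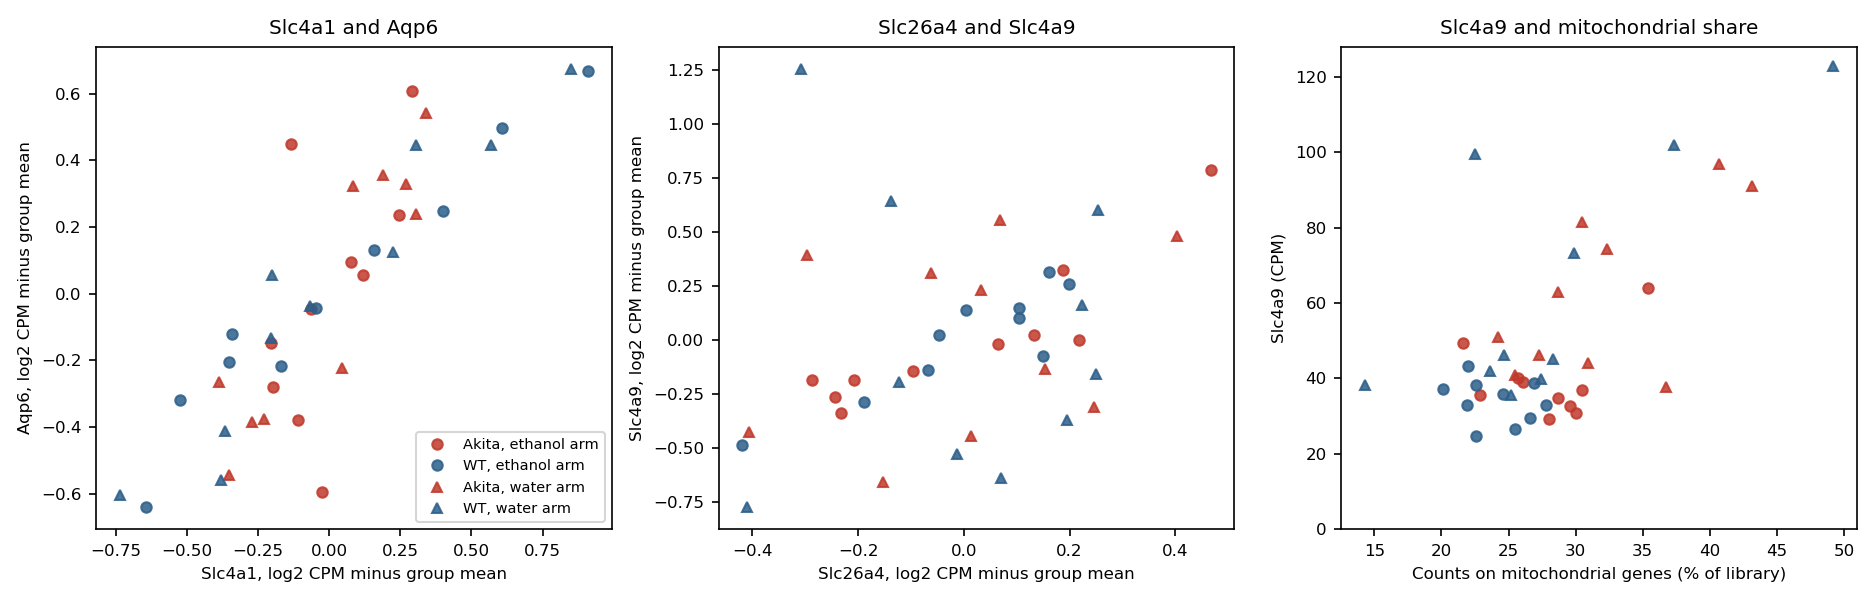
Left and middle, deviation from the group mean in log2 CPM of Aqp6 against Slc4a1 and of Slc4a9 against Slc26a4, and right, Slc4a9 level in CPM against the share of counts on mitochondrial genes in percent, 1 point per mouse (circles ethanol arm, triangles water arm, red Akita, blue WT). The first pair rises together in both arms (r = 0.80 and 0.92), and the second has r = 0.90 in the ethanol arm and 0.07 in the water arm (0.36 without WT MitoQ replicate 3, the highest triangle).

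Akita MitoGamide replicate 5 had the highest level of its group in Atp6v0d2 (52.9 CPM), Atp6v1g3 (22.8 CPM), Slc4a9 (64.0 CPM), Slc26a4 (63.2 CPM), Foxi1 (31.3 CPM) and Aqp6 (27.7 CPM). It was not the highest for Atp6v1b1, Slc4a1, Rhcg and Rhbg. The same mouse was thus high in both type B exchangers and in Foxi1, while of the type A genes Aqp6 was the highest of its group and Slc4a1 was not.

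The genes whose deviations were most like those of Foxi1, out of 17759 ranked over the 40 libraries and with the 10 members left out, included Efhd1 (r = 0.66), Rcan2 (0.65), Slc2a9 (0.65), Slc44a3 (0.64), Stambp (0.63), the forkhead factor Foxq1 (0.63) and Wnt16 (0.62). Wnt16 was barely expressed, at a mean of 0.717 CPM, where Foxq1 was the next lowest of these at 6 CPM. Among the members, Slc26a4 was closest to Foxi1 with r = 0.59, followed by Atp6v0d2 with 0.55. Without Akita MitoGamide replicate 5 the r of Slc26a4 with Foxi1 was 0.50, that of Efhd1 0.55 and that of Foxq1 0.43. These values are a description of likeness among libraries that share preparation and scaling.

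The spread within groups differed between the genes. Over the 8 groups the median coefficient of variation was lowest for Atp6v1b1 (10.4%) and Rhcg (14.1%) and highest for Slc4a9 (31.4%) and Aqp6 (29.4%). Of the 70 neighbouring pairs in the orders of the 10 genes' group means, 69 were closer than the larger SD of the pair. The median count per library was lowest for Atp6v1g3 (221), Foxi1 (235) and Rhbg (252). The lowest count of any of the 10, 33 for Rhbg, came from WT MitoQ replicate 3, and without that library the lowest for Rhbg was 111.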

How the data were processed

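Renal cortex RNA of 40 mice, 5 in each of 8 groups given by the labels, was sequenced from rRNA-depleted, strand-marked libraries. The authors trimmed the reads with Skewer, assigned them to GENCODE mouse release 25 transcripts (GRCm38) with kallisto 0.46.1, and summed them to genes in R 4.0.2, and the values they deposited are estimated counts per gene, of which all 40 sample columns were used. Estimated counts share reads among overlapping transcripts, which bears on Rhbg. Counts were rounded to whole numbers, scaled by TMM and fitted with edgeR 4.0.16 (quasi-likelihood, Benjamini-Hochberg over every gene that averaged 10 counts or more across the fitted libraries, called at an adjusted p under 0.05). The study's own test, DESeq2 (1.42.0 here), was an alternative, with RLE scaling, other count filters, 1 fit of all 40 libraries, the replicate number as a block, and leaving out libraries or treatments. Fits within arms, the test between arms, values without the libraries that stood apart and the correlations (log2 CPM with a prior count of 1, less group means) were added after the data were seen. The scripts were tested on simulated data.

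The members and gene lists were chosen with earlier results of these data known. All 10 members were named, up to 4 genes called for diabetes from each other list by smallest p, and the 8 genes most like Foxi1. Values of some genes named by this rule are not reported here. Positions came from GENCODE mouse release 21 (99.5% of 55401 identifiers found) and promoters from RefSeq (GRCm38.p6). Replicates are separate mice, the highest correlation between libraries of a group was 0.985 and no pair was identical. Protein sequences were not used here.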

Additional observations from a re-analysis of the deposited data

Results flagged for a closer look

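In 80 gene and group sets of 5 mice, 7 held a mouse whose gap to the nearest other mouse was more than 0.71 of the group's range, the 95% limit of Dixon's test. Chance gives about 1 such set in 20, or 4 of 80. Akita MitoGamide replicate 5 accounted for 3 of them, with 52.9 CPM for Atp6v0d2 (next 23.3), 22.8 CPM for Atp6v1g3 (next 14.5) and 64.0 CPM for Slc4a9 (next 37). Rhbg stood high in Akita MitoGamide replicate 3 at 22.7 CPM (next 16.8). Atp6v0d2 was at 29.3 CPM in Akita MitoQ replicate 4 (next 19.6), and Slc4a1 at 60.6 CPM in WT MitoQ replicate 4 (next 32.1). Slc4a9 was at 123 CPM in WT MitoQ replicate 3 (next 46.2), the library with the highest mitochondrial share.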

How the results depend on the processing

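Of 1134 refits of the 39 fold changes given for the 10 genes, 1046 kept their direction and their side of the threshold, 34 lost a call, 35 gained one and 19 changed sign. For diabetes over all mice, where 2 of 10 were called, the count was 1 with no filter on low counts, 1 without the mice on ethanol vehicle, 0 without those on MitoGamide, 5 in the ethanol arm alone and 0 in the water arm alone, and 2 to 4 without single libraries. On ethanol vehicle 1 was called, with 2 by DESeq2 (Rhbg besides), 0 in a fit of all 40 libraries and 0 to 2 without single libraries. With MitoGamide 1 was called, with 0 in the fit of all 40 libraries and 0 to 2 without single libraries. For MitoGamide in Akita mice DESeq2 called 1 where edgeR called 0. Between vehicles 2 were called with at least 10 counts asked of every library, where 1 was called. In the ethanol arm 5 were called, with 3 in the fit of all 40 libraries and 3 to 5 without single libraries. The cause was not tested for any of these.

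The sign changed only in fold changes that were not called. Over all mice, Atp6v1g3 went from 0.05 to -0.07 without the mice on water and -0.05 in the ethanol arm, Slc4a1 from -0.02 to 0.08 without those on MitoQ and 0.15 in the ethanol arm (-0.05 to 0.06 without single libraries), Slc4a9 to -0.05 and Rhbg to -0.04 in the water arm. Rhbg within the water arm ran from -0.11 to 0.06, and Aqp6 with MitoQ from -0.04 to 0.32, without single libraries.

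With no filter the median of all genes between vehicles was -0.121, where it was -0.023. Counts over all genes moved by more than 1.5 times with DESeq2 for MitoGamide in Akita mice (1069 against 214) and for diabetes on water (354 against 101) and with MitoQ (415 against 101), and in the fit of all 40 libraries for diabetes on ethanol vehicle (844 against 2910). The replicate numbers did not pair the mice, since no comparison had all 5 pairs correlated above 0.1. With the replicate block, 2 genes were still called for diabetes over all mice and 4 in the ethanol arm, where Foxi1 was lost (adjusted p = 0.0548), as it was in 3 of the other 5 refits that kept all libraries. Over all genes the block gave 0 against 214 calls for MitoGamide in Akita mice. It gave 32 against 101 for diabetes on water and 48 against 101 for diabetes with MitoQ. Atp6v1g3, Foxi1 and Rhbg had the fewest counts of the 10, with medians of 221, 235 and 252 per library, and a limit set by depth was not tested.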
